A study of Homo sapiens with 5 samples.

Results

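The transcripts of 10 growth-factor receptor genes were followed through 5 RNA sequencing libraries made from the human osteosarcoma cell line U2OS. The genes are PDGFRA, PDGFRB, EGFR, ERBB2, ERBB3, ERBB4, IGF1R, INSR, MET and KIT. They were taken by gene name from the deposited tables, where all 10 were found among 27992 gene names. The study concerns how the amount of the transcription factor E2F1 relates to the fate of a cell. Of the libraries, 4 came from U2OS pTRIPZ-YFP-ER-E2F1 cells, which carry an inducible gene for E2F1 joined to yellow fluorescent protein (YFP) and to an oestrogen receptor part, sorted by YFP into negative, low, medium and high fractions. The remaining one is of parental U2OS cells, without it. All groups, the parental one included, were labelled as given doxycycline at 500 ng/ml for 48 h to switch the construct on, and then OHT (4-hydroxytamoxifen) at 90 nM for 20 h to activate the fusion protein. Doxycycline and OHT are therefore shared by every library and no untreated library was analysed here. The YFP fractions differ in YFP and not by a separate dose, and each group has 1 library, so no difference below has a replicate check and no test was made.

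These receptors are tyrosine kinases of the cell surface: a growth factor outside the cell pairs them or, for IGF1R and INSR, which are pairs already, changes their shape, and the partners then phosphorylate each other and recruit adaptors that lead to RAS and ERK and to PI3K and AKT. PDGFRA and PDGFRB bind platelet-derived growth factors and are typical of mesenchymal cells, the origin of osteosarcoma. EGFR, ERBB2, ERBB3 and ERBB4 bind epidermal growth factor and neuregulins, except that ERBB2 has no known ligand of its own. IGF1R and INSR bind insulin-like growth factors and insulin, MET binds hepatocyte growth factor, and KIT binds stem cell factor.

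Levels are given in CPM, gene reads per 1000000 of a library size that was scaled between libraries. To be called, a gene had to pass 2-fold in the ratio of its levels, each with 0.5 CPM added, and have a 95% counting interval that did not include a ratio of 1. Of the 10 receptors, 9 reached 1 CPM in at least 1 library and entered the comparisons. KIT did not. In the account below, "higher" and "lower" are used of called genes, and other genes are given by their values.

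Shown first are the gene starts of INSR, IGF1R and PDGFRB, whose levels were ordered along the YFP fractions and called in the high one, and of PDGFRA, which was called there without such an order. The sequences are RefSeq promoter windows of GRCh38.p14, from 250 bases before the annotated start to 30 bases after it, 5′ to 3′ on the strand of the gene. Capitals mark the E2F consensus strings TTTCCCGC, TTTCGCGC, TTTGCCGC and TTTGGCGC and the GC box GGGCGG, searched on both strands. INSR lies at chr19:7294385-7294664 on the minus strand, IGF1R at chr15:98648289-98648568 on the plus strand, and PDGFRB at chr5:150155816-150156095 on the minus strand. The windows of the 2 annotated starts of PDGFRA lie at chr4:54229043-54229322 and chr4:54233710-54233989, both on the plus strand.
INSR: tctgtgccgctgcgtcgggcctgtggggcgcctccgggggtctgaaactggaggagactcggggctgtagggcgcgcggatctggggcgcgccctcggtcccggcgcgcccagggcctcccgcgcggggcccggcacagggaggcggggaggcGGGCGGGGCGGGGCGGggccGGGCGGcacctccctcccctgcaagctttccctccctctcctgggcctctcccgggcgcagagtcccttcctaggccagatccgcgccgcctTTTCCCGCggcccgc
IGF1R: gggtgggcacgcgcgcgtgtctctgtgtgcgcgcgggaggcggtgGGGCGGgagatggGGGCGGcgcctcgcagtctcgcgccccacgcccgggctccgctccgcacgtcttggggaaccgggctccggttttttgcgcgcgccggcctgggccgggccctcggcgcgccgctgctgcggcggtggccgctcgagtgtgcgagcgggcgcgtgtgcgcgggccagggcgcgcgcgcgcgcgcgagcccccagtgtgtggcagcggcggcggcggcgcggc
PDGFRB: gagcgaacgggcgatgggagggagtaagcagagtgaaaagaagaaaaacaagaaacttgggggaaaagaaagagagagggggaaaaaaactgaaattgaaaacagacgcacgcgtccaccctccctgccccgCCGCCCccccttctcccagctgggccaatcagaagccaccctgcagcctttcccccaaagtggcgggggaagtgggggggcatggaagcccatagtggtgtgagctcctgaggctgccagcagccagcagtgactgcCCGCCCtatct
PDGFRA, upstream start: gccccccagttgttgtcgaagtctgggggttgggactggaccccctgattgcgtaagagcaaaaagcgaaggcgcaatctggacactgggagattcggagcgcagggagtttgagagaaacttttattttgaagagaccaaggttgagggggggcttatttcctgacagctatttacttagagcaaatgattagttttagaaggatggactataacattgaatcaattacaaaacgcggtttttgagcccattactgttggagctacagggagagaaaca
PDGFRA, downstream start: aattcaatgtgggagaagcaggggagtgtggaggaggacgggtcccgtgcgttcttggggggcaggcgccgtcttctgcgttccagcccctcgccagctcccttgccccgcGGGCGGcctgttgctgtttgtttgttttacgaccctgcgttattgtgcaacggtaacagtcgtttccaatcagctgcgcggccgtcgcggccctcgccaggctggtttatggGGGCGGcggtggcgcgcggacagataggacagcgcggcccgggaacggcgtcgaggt

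In the INSR window the string TTTCCCGC begins 15 bases after the start, and a run of overlapping GC boxes and 1 further GC box lie upstream. Over the full 300-base windows of the RefSeq table, which holds 9 of the 10 receptors, an E2F string was found in INSR and in KIT, where TTTGCCGC begins 15 bases before the start. ERBB3 has no entry in the table. Of all 35116 windows in the table, 3.31% hold such a string, 45.0% hold a GC box and 11.5% hold the TATA string TATAAA. IGF1R had the highest GC content of the receptor windows at 79.7%, with 55 CpG dinucleotides, followed by INSR at 78.3% with 36. The median window in the table had 58.7% GC and 14 CpG dinucleotides. PDGFRB lay close to that median, at 59.3% GC and 11 CpG dinucleotides. The 2 windows of PDGFRA differ: the upstream one had 47.0% GC, 8 CpG dinucleotides and no GC box, and the downstream one 66.7% GC, 32 CpG dinucleotides and 2 GC boxes. These matches describe letters in the reference and not binding. Their offsets are from RefSeq starts, and GENCODE v29 of GRCh38 places the INSR start at chr19:7294034, downstream of the window shown.

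The libraries held 70.7 M to 76.5 M gene reads. E2F1 itself, which checks the sort, was at 106 CPM in the negative fraction and 998 CPM in the high one, with the others in the order of YFP. In parental cells E2F1 was at 85.6 CPM. The count is per gene and does not separate E2F1 of the construct from the cell's own. The share of reads that fell in no annotated gene was 9.11% to 11.0%, highest in the high fraction. The label of a mesenchymal line was checked with markers: 6 of 7 mesenchymal and osteoblast genes passed the filter, with VIM at 1356 to 1567 CPM and RUNX2 at 32.6 to 50.4, while COL1A2 stayed at 0.251 to 0.400. Of 5 epithelial markers 4 passed the filter, with a summed level of 14.4 CPM in parental cells and 9.31, 10.1, 9.75 and 14.3 CPM from the negative to the high fraction. EPCAM was higher in YFP-high, at 11.6 CPM beside 3.28 in YFP-negative, while CDH1, at 2.53 to 5.48 CPM, was at its lowest there, and the list's median log2 ratio was -0.65. KRT5 and KRT14 were at 2.65 and 3.86 CPM in parental cells and at 0.601 CPM or less in every fraction, and KRT19 had no read. None of 5 leukocyte markers passed the filter. Of 4 endothelial markers 2 did, with a summed level of 4.84 CPM in parental cells and 1.43 to 1.78 in the fractions, while PECAM1 and CDH5 lay at or below 0.181 CPM. COL1A1, the collagen of bone matrix, was at 3253 CPM in parental cells and at 1257, 1089, 946 and 753 CPM from the negative to the high fraction. PDGFRB and ERBB2 share that order, and the part of these markers in the receptor values was not tested. In such bulk libraries fewer cells of a type and less RNA per cell cannot be told apart.

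**Figure D1:**
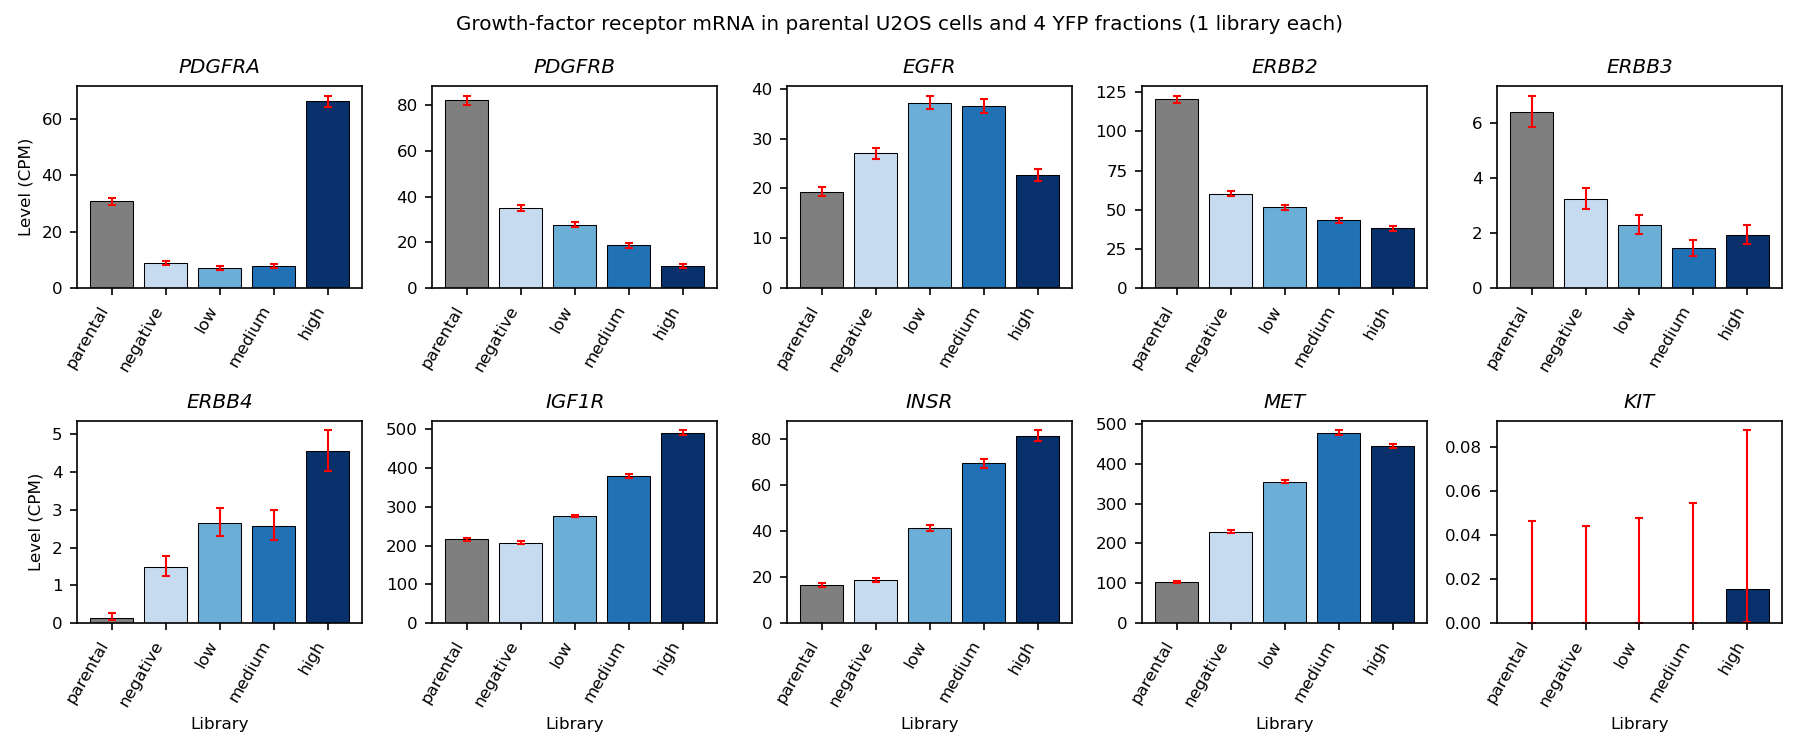
Level of each receptor (CPM, y axis from 0, a scale per gene) in the parental library and the YFP-negative, low, medium and high libraries (x axis). Bars are single libraries and red lines are 95% counting intervals. PDGFRA stands out in YFP-high at 66.1 CPM, PDGFRB and ERBB2 are highest in parental cells, and IGF1R and INSR reach 491 and 81.2 CPM in YFP-high.

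The comparisons along the YFP fractions ask how receptor transcripts differ with the amount of the E2F1 fusion. Against YFP-negative, INSR was higher in the low fraction, INSR and MET in the medium one, and PDGFRA, INSR, ERBB4 and IGF1R in the high one. PDGFRB was lower in the high fraction. Thus 1 of the 9 receptors was higher and none lower in the low fraction, where 2.13% of all 15099 genes analysed were called, 2.07% higher and 0.0596% lower. In the medium fraction 2 were higher and none lower, where 12% of all genes were called, 9.75% higher and 2.25% lower. In the high fraction 4 were higher and 1 lower, where 31.6% of all genes were called, 20.3% higher and 11.3% lower. The median log2 ratio of the 9 was 0.41, 0.43 and 0.95 in the low, medium and high fractions, and that of all genes -0.01, -0.02 and -0.05. The 3 comparisons share the YFP-negative library. Scaling by total counts, in place of the trimmed mean of M values (TMM), moved the median of all genes in YFP-high by -0.26 on the log2 scale. It changed the share of calls that were higher from 64.2% to 45.7% in YFP-high and from 81.3% to 58.0% in YFP-medium, where the median moved by -0.20.

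INSR, the insulin receptor, was called against YFP-negative in all 3 YFP-positive fractions, the only one of the 9 receptors to be so in that comparison. It stood at 16.5 CPM in parental cells and at 18.8, 41.3, 69.2 and 81.2 CPM in the negative, low, medium and high fractions. The parental and YFP-negative libraries were close, and each further fraction lay above the one before. Against YFP-negative, INSR was higher by 2.19-fold in the low fraction (interval 2.06 to 2.33), by 3.68-fold in the medium one (3.47 to 3.90) and by 4.31-fold in the high one (4.08 to 4.57). Of its log2 ratio in the high fraction, 53.5% was already present in the low fraction and 89.0% in the medium one. The step from medium to high was 1.17-fold (1.13 to 1.22), the smallest of the 3.

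IGF1R, the receptor for insulin-like growth factors and the closest relative of INSR, began from a much higher level. It was at 216 CPM in parental cells and at 208, 276, 378 and 491 CPM in the negative, low, medium and high fractions. The 4 fractions stood in the same order as for INSR, with parental and YFP-negative within 1.04-fold. IGF1R was 2.36-fold higher in YFP-high than in YFP-negative (2.32 to 2.41). The log2 ratio of 0.41 in the low fraction was 33.1% of that in the high one, and the 0.86 of the medium fraction was 69.8% of it, and neither passed 2-fold. With total counts the log2 ratio in YFP-high was 0.97 and the call was lost. Levels of the 2 genes can be compared per transcript length in TPM, where IGF1R was 11.3 times INSR in parental cells and 9.49, 5.75, 4.70 and 5.20 times INSR in the negative, low, medium and high fractions. Of all 15099 genes, 23.9% had levels that went up at every step from the negative to the high fraction, as IGF1R and INSR did, and 28.2% had levels that went down, as PDGFRB and ERBB2 did. Such an order is thus common in these libraries.

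PDGFRA, the alpha receptor for platelet-derived growth factors, did not follow the order of YFP. It stood at 30.8 CPM in parental cells and at 8.97, 7.24, 7.89 and 66.1 CPM in the negative, low, medium and high fractions. The first 3 fractions were all low, YFP-low and YFP-medium did not differ beyond counting error, and YFP-high was above every other library. PDGFRA was 7.37-fold higher in the high fraction than in the negative one (6.82 to 7.98). It was 8.37-fold higher in the high fraction than in the medium one (7.65 to 9.18), and the only one of the 9 receptors called there, beside 10.5% of all genes, 9.17% higher and 1.31% lower. Between the medium and low fractions no receptor was called, beside 2.92% of all genes, 2.74% higher and 0.185% lower. YFP-high was also 2.15-fold above parental cells (2.04 to 2.26). In GENCODE v29 of GRCh38, 1533 exonic bases of PDGFRA are shared with AC058822.1 on the same strand, a gene name that is not among those counted.

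PDGFRB, the beta receptor, ran the other way. It was at 81.9 CPM in parental cells and at 35.1, 27.7, 18.7 and 9.82 CPM in the negative, low, medium and high fractions. Each library lay below the one before it. PDGFRB was 3.57-fold lower in YFP-high than in YFP-negative (3.27 to 3.90), while the log2 ratio was -0.34 in YFP-low and -0.89 in YFP-medium. With total counts the log2 ratio in YFP-medium was -1.10, past the call. In TPM the ratio of PDGFRA to PDGFRB was 0.208 in parental cells and 0.141, 0.145, 0.233 and 3.72 in the negative, low, medium and high fractions. YFP-high was thus the only library of the 5 with more PDGFRA than PDGFRB per transcript length.

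**Figure D2:**
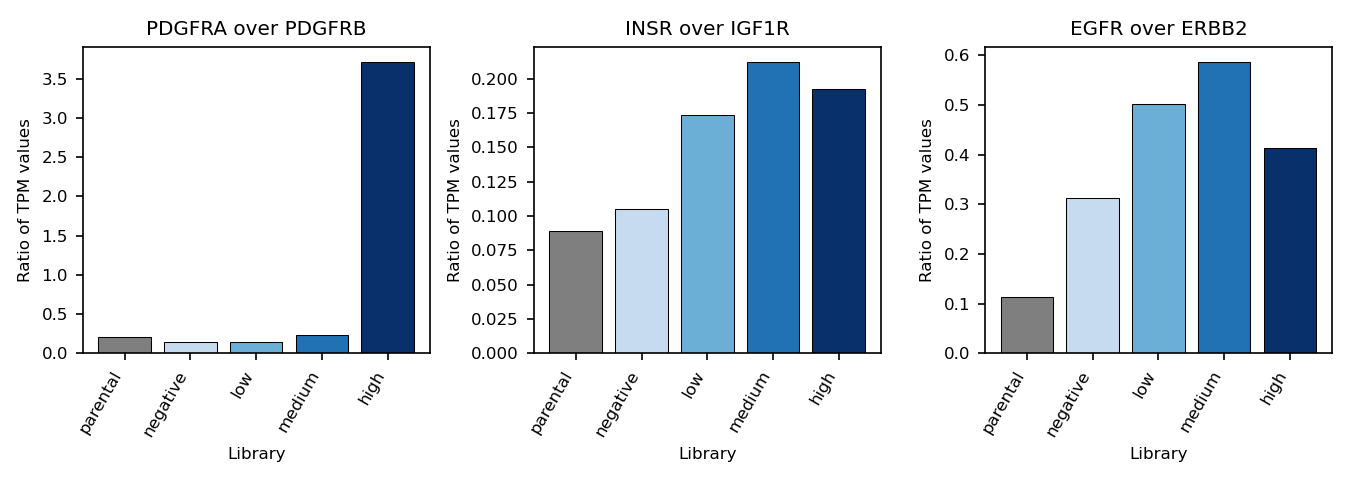
Ratio of TPM values (y axis from 0, 1 library per bar) for PDGFRA over PDGFRB, INSR over IGF1R and EGFR over ERBB2 in the 5 libraries (x axis). PDGFRA over PDGFRB is 0.141 to 0.233 in 4 libraries and 3.72 in YFP-high, and the other ratios stay below 1 in all 5.

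MET, the receptor for hepatocyte growth factor, peaked in YFP-medium. It stood at 103 CPM in parental cells and at 230, 355, 478 and 444 CPM in the negative, low, medium and high fractions. All 4 fractions were above parental cells, and YFP-high lay 1.08-fold below YFP-medium. MET was 2.08-fold higher in YFP-medium than in YFP-negative (2.04 to 2.12). In YFP-high the fold was 1.93 (1.90 to 1.97), short of the threshold. The call in YFP-medium was lost with total counts (log2 ratio 0.84) and with TPM (0.94), and in YFP-high a call was gained with DESeq2 size factors (1.00).

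The EGF receptor family was divided. EGFR, the receptor for epidermal growth factor and TGF-alpha, was at 19.4 CPM in parental cells and at 27.0, 37.2, 36.5 and 22.7 CPM in the negative, low, medium and high fractions. Its values were highest in the middle fractions, which did not differ beyond counting error, and no comparison called it by the 2-fold rule. The log2 ratio against YFP-negative was 0.45, 0.43 and -0.25, and YFP-high against YFP-medium gave -0.68.

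ERBB2, the partner kinase of the family, was at 120.3 CPM in parental cells and at 60.3, 51.6, 43.4 and 38.3 CPM in the negative, low, medium and high fractions. Its levels, like those of PDGFRB, were in falling order through all 5 libraries, but none of its log2 ratios to YFP-negative passed the threshold, at -0.22, -0.47 and -0.65. In GENCODE v29, ERBB2 shares 571 exonic bases with MIEN1 and 194 with PGAP3, both on the opposite strand. MIEN1 held 1505 to 2277 reads and PGAP3 487 to 1099, against 2438 to 9541 for ERBB2. The reads of PGAP3, like those of ERBB2, fell from each library to the next. Whether counting used strand is not known here, and the part of these overlaps in the ERBB2 values was not tested.

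ERBB3, a receptor for neuregulins with weak kinase activity, was low. It was at 6.40 CPM in parental cells and at 3.24, 2.28, 1.45 and 1.93 CPM in the negative, low, medium and high fractions, from 508 reads down to 98. YFP-low and YFP-high did not differ beyond counting error. The log2 ratios to YFP-negative were -0.43, -0.94 and -0.62. Without the pseudocount, ERBB3 in YFP-medium was 2.24-fold below YFP-negative (1.77 to 2.85), so the 0.5 CPM kept it short of the call. The ratio of YFP-medium passed the call with total counts, at -1.12.

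ERBB4, the other neuregulin receptor, had 12 reads, or 0.151 CPM, in parental cells. It stood at 1.49, 2.66, 2.57 and 4.54 CPM in the negative, low, medium and high fractions, from 124, 206, 174 and 289 reads. YFP-low and YFP-medium did not differ beyond counting error. ERBB4 was 3.04-fold higher in YFP-high than in YFP-negative (2.46 to 3.79), and the log2 ratio was 0.67 in YFP-low and 0.63 in YFP-medium. The call in YFP-high was lost with a pseudocount of 2 CPM (log2 ratio 0.91) and with TPM (0.75). ERBB4 over ERBB3 in TPM was 0.0143 in parental cells and 0.278, 0.706, 1.08 and 1.42 from YFP-negative to YFP-high.

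KIT, the receptor for stem cell factor, had no read in 4 libraries and 1 read in YFP-high. By the floor used here, a count of 0 allows up to 3 reads, or 0.0361 CPM in YFP-negative. The upper limit of the 95% counting interval was 0.0443 CPM in YFP-negative. In YFP-high, with 1 read or 0.0157 CPM, that limit was 0.0874 CPM. KIT and PDGFRA are neighbours on chromosome 4, with 359.67 kb between them in GRCh38, and PDGFRA held 534 to 4211 reads per library.

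**Figure D3:**
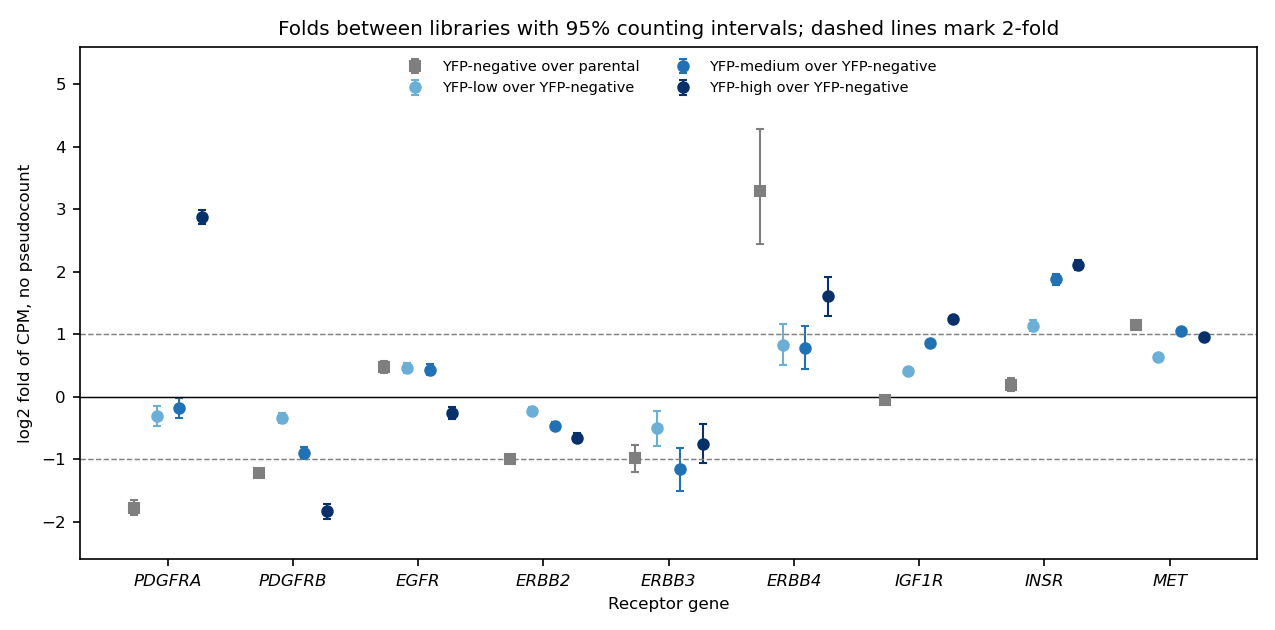
log2 fold of CPM without a pseudocount (y axis) for the 9 receptors analysed (x axis), with 95% counting intervals. Squares compare YFP-negative with parental cells and circles compare YFP-low, medium and high with YFP-negative. Above the upper 2-fold line lie the 3 circles of INSR, those of PDGFRA, ERBB4 and IGF1R in YFP-high and that of MET in YFP-medium. Below the lower line lie the circles of PDGFRB in YFP-high and of ERBB3 in YFP-medium, which was not called with the pseudocount. The squares of ERBB4 and MET lie above the upper line and those of PDGFRA and PDGFRB below the lower one.

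Comparing YFP-negative with parental cells asks what differs between cells with the construct but without YFP signal and cells without the construct. ERBB4 and MET were higher in YFP-negative, and PDGFRA and PDGFRB lower. The 4 calls among 9 receptors stand beside 5.05% of all genes called, 2.21% higher and 2.85% lower. ERBB4 was 9.85-fold higher (5.44 to 19.6) and MET 2.22-fold higher (2.17 to 2.28). PDGFRA was 3.43-fold lower (3.16 to 3.73) and PDGFRB 2.34-fold lower (2.24 to 2.44). ERBB2 missed the threshold at a log2 ratio of -0.99 (1.93 to 2.07-fold below) and ERBB3 at -0.88, both with less in YFP-negative. The median log2 ratio of the 9 was -0.06, near -0.00095 for all genes. The ERBB4 call was lost with a pseudocount of 2 CPM (log2 ratio 0.70) and with TPM (0.61). The labels do not say how the construct line was derived, so the construct, its history and the sort cannot be told apart here.

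The parental baseline changes which receptors stand out, as PDGFRA, PDGFRB, MET and ERBB4 already differed between parental and YFP-negative cells. Against parental cells, 3 receptors were higher and 4 lower in YFP-low, where 10.4% of all genes were called, 5.96% higher and 4.4% lower. Likewise 3 were higher and 4 lower in YFP-medium, where 20.7% of all genes were called, 12.5% higher and 8.17% lower. In YFP-high 5 were higher and 3 lower, where 35.9% of all genes were called, 21.3% higher and 14.6% lower. MET was 4.30-fold higher in YFP-high than in parental cells (4.19 to 4.41), INSR 4.93-fold (4.64 to 5.24) and ERBB4 30.0-fold (16.9 to 58.7). PDGFRB was 8.34-fold lower (7.68 to 9.07), ERBB3 3.32-fold (2.72 to 4.07) and ERBB2 3.14-fold (3.01 to 3.29). PDGFRA was 4.25-fold lower in YFP-low (3.88 to 4.67) and 3.90-fold lower in YFP-medium (3.55 to 4.29), although 2.15-fold higher in YFP-high.

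Per transcript length, the makeup of the receptors differed between the libraries. The summed TPM of the 10 was 196 in parental cells and 186, 241, 287 and 303 in the negative, low, medium and high fractions. In parental cells ERBB2 held the largest share at 28.0%, ahead of IGF1R at 24.5%, PDGFRB at 18.9% and MET at 18.2%. MET held the largest share in the other libraries, at 42.7%, 49.9%, 53.3% and 46.4% in the negative, low, medium and high fractions. IGF1R was second in every library, at 24.8% in YFP-negative and 33.0% in YFP-high. ERBB2 went from 14.8% in YFP-negative to 5.28% in YFP-high, and PDGFRB from 8.53% to 1.34%. INSR held 2.61% in YFP-negative and 6.34% in YFP-high, where it ranked 3 of the 10. PDGFRA held 1.21%, 0.736%, 0.637% and 5.00% from YFP-negative to YFP-high.

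**Figure D4:**
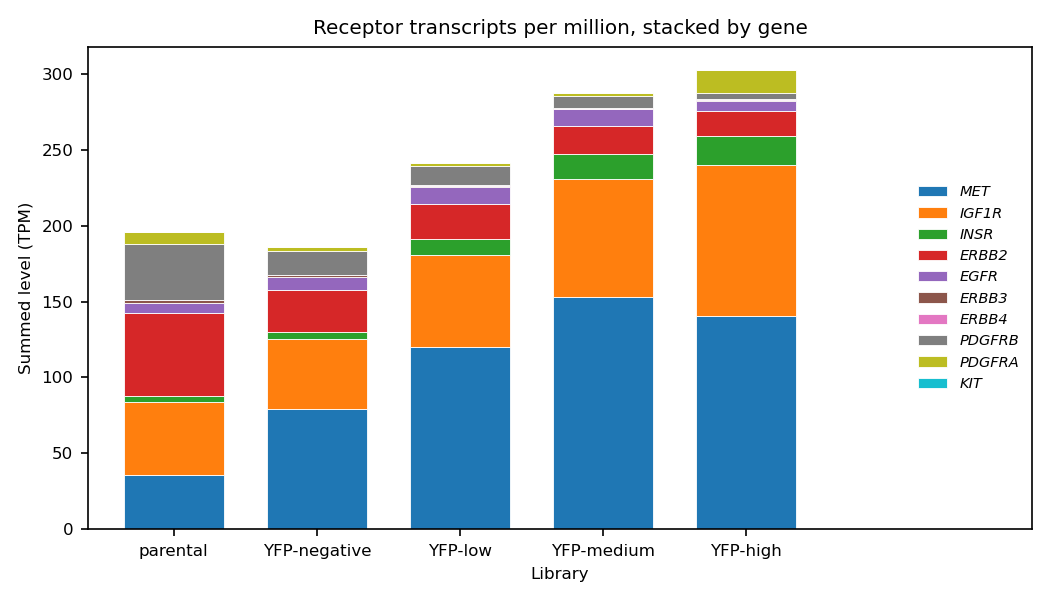
Summed level of the 10 receptors in TPM (y axis from 0) in each library (x axis), stacked by gene. The sum is 196 in parental cells and 303 in YFP-high, and the MET segment widens from 18.2% of the sum in parental cells to 42.7% or more in the 4 YFP fractions.

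Other genes whose level profile was nearest to that of a receptor called in YFP-high against YFP-negative, which leaves out MET, were found over the 5 libraries by Euclidean distance between centred log2 profiles. The nearest to PDGFRA was MYCL1 (distance 0.45), which had 2.74 CPM in YFP-negative and 19.0 in YFP-high, then KCNA1 (0.49) and ZNF423 (0.65). PDGFRB was nearest to TSPAN2 (0.16), C1RL (0.17) and C9orf84 (0.17), and C9orf84 fell from 37.3 to 9.38 CPM over the same fractions. INSR was nearest to ZNF711 (0.11), DSCC1 (0.12) and PDE7A (0.13), and IGF1R to HIPK1 (0.03), DTX3L (0.08) and GPR137 (0.08). HIPK1 stood at 182, 178, 233, 315 and 410 CPM from parental cells to YFP-high, close to a scaled copy of the IGF1R profile. ERBB4 was nearest to MARCH3 (0.42), MIR17HG (0.45) and WSCD1 (0.46). These are descriptions over 5 points that share library and depth.

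The ligands and downstream genes of these receptors were taken from lists set out for this work. Of their 114 analysed genes, 42 (36.8%) were called higher and 12 (10.5%) lower in YFP-high against YFP-negative, where 20.3% and 11.3% of all genes were. Without the other receptor tyrosine kinases, which gave 20 of the 42, 22 of 75 (29.3%) were higher and 6 lower. Genes named beyond the largest changes of each list were chosen after their values were seen.

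Of 4 genes for platelet-derived growth factors, 2 were higher and 1 lower in YFP-high, beside 20.3% and 11.3% of all genes. The list's median log2 ratio was 0.86. PDGFB, the B chain that binds both receptors, was at 7.96 CPM in parental cells and at 3.87, 13.1, 35.9 and 73.9 CPM in the negative, low, medium and high fractions. Its fold over YFP-negative was 3.39 in the low fraction (2.99 to 3.86) and 19.1 in the high one (17.1 to 21.5), both called. PDGFA, the A chain that binds PDGFRA, was 3.55-fold higher in YFP-high, and PDGFC, another ligand, 3.45-fold lower. PDGFD had a log2 ratio of -0.09 and stayed between 3.30 and 4.29 CPM. PDGFB was thus called from YFP-low on, where PDGFRA was not.

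KITLG, which encodes stem cell factor, was at 17.9 CPM in parental cells and at 33.0, 93.3, 175 and 221 CPM in the negative, low, medium and high fractions. Its fold in YFP-high was 6.69 (6.42 to 6.97), while KIT, its receptor, had no more than 1 read in any library. HGF, the ligand of MET, had 1 read or none per library.

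Of 11 EGF family ligands, 9 were analysed, with a median log2 ratio of 0.69 in YFP-high. Among these, 4 were higher and 1 lower, beside 20.3% and 11.3% of all genes. TGFA, a ligand of EGFR, was 5.32-fold higher (18.2 to 96.9 CPM) and NRG3, a ligand of ERBB4, 3.41-fold higher (16.3 to 55.6 CPM). NRG2 and NRG4, at 4.44 and 2.12 CPM in YFP-high, were the other 2, and EGF, at 1.99 CPM, was the lower one. NRG4 passed the filter through YFP-high alone. EGF and NRG4 lost their calls with a pseudocount of 2 CPM, and EGF also with TPM and with the parental baseline. Against parental cells, AREG and EREG were already higher in YFP-negative, which makes 2 of 9, beside 2.21% of all genes.

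The ligand and binding protein list of the insulin-like growth factor axis had 10 genes, of which 6 were analysed. In YFP-high 1 was higher and 1 lower, beside 20.3% and 11.3% of all genes, and the list's median log2 ratio was 0.08. IGF2, a ligand of IGF1R, was 6.79-fold higher at low level, from 1.31 to 8.90 CPM, and IGF1 was below the filter. IGFBP5, a binding protein abundant in bone, was 6.39-fold lower, with 319.9 CPM in parental cells and 89.2, 54.3, 25.0 and 14.0 CPM in the negative, low, medium and high fractions. Its order matches that of PDGFRB, with a step of 3.59-fold between parental and YFP-negative cells (3.49 to 3.68).

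Of 14 docking and adaptor genes, 13 were analysed, with a median log2 ratio of 0.67 in YFP-high. Among the 13, 3 were higher and none lower, beside 20.3% and 11.3% of all genes. IRS4, a substrate of INSR and IGF1R, was 32.0-fold higher, from 0.505 to 16.1 CPM, and it stood at 1.51 CPM in YFP-medium. It passed the filter through YFP-medium and YFP-high alone, so the count of 3 includes a gene that entered by the level compared. GAB2 was 6.65-fold higher and GAB1, the docking protein of MET, 5.10-fold higher, with both called already in YFP-medium. IRS1, another substrate of INSR and IGF1R, was not called against YFP-negative. It was at 267 CPM in parental cells and at 123, 101, 106 and 179 CPM in the negative, low, medium and high fractions. Against parental cells IRS1 was 2.17-fold lower in YFP-negative (2.12 to 2.22), 2.64-fold in YFP-low (2.57 to 2.71) and 2.53-fold in YFP-medium (2.46 to 2.60).

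Among 17 genes listed as receptor inhibitors and ubiquitin ligases, a name that need not hold for each, 16 were analysed. Their median log2 ratio was 0.38 in YFP-high. Of the 16, 5 were higher and 3 lower, beside 20.3% and 11.3% of all genes. SOCS3, which damps cytokine and insulin receptor signals, was 4.49-fold higher and LRIG3 3.21-fold higher, and GRB10, GRB14 and LRIG1 were the others. RNF41, a ubiquitin ligase for ERBB3, was 2.73-fold lower, LRIG2 2.70-fold lower, and ERRFI1, an inhibitor of EGFR, was the other, with its call lost against the parental baseline. The GRB10 call was lost with total counts (0.85) and with TPM (0.99).

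The median log2 ratio of 12 RAS and ERK genes was 0.35 in YFP-high. Of these, MAPK3 alone was called, 2.06-fold higher, beside 20.3% of all genes higher and 11.3% lower. That call was lost with total counts (0.76), with a pseudocount of 2 CPM (1.00), with TPM (0.90) and with the parental baseline (0.73). Of 14 PI3K and AKT genes, 5 were higher and none lower, beside 20.3% and 11.3% of all genes. The list's median log2 ratio was 0.28. FOXO1 and FOXO3, transcription factors that AKT keeps out of the nucleus, were 8.06-fold and 4.44-fold higher, and AKT1 was 2.64-fold higher, from 111 to 292 CPM. PIK3R3 at 2.08-fold and PDPK1 were the other 2, and both calls were lost with total counts, with TPM and with the parental baseline, and that of PDPK1 also with a pseudocount of 2 CPM (0.99).

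For comparison, 48 other receptor tyrosine kinases were listed, of which 39 were analysed. Their median log2 ratio in YFP-high was 1.25, beside 0.95 for the 9 receptors here. Of the 39, 20 were higher and 6 lower in YFP-high, beside 20.3% and 11.3% of all genes. In YFP-low 3 of them were higher and none lower, beside 2.07% and 0.0596% of all genes. In YFP-medium 10 were higher and 1 lower, beside 9.75% and 2.25% of all genes. The largest were NTRK2, from 1.69 to 78.3 CPM, FGFR3, from 4.87 to 179 CPM, EPHA8, from 0.276 to 12.5 CPM, and AATK, from 1.14 to 19.1 CPM. EPHA8, like PDGFRA, had its change between YFP-medium and YFP-high, with 0.251 CPM in YFP-medium. EPHA8, KDR, RET and LTK passed the filter through YFP-high alone, where they were at 12.5, 1.88, 6.78 and 1.40 CPM. ALK passed it through YFP-medium and YFP-high alone, at 1.24 and 7.47 CPM. The counts and median of this list thus include genes that entered by the level compared, as do those of all genes. Against parental cells 20 were higher and 9 lower in YFP-high, beside 21.3% and 14.6% of all genes, but not the same genes. EPHB3, EPHA2 and EPHA4 lost their calls there, NTRK3 turned lower (log2 ratio -1.33), and FLT1 and DDR1 became higher. With a pseudocount of 2 CPM, the calls of KDR, NTRK3, EPHA4 and LMTK3 were lost. No test of the difference between the receptors and these other kinases was made.

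**Figure D5:**
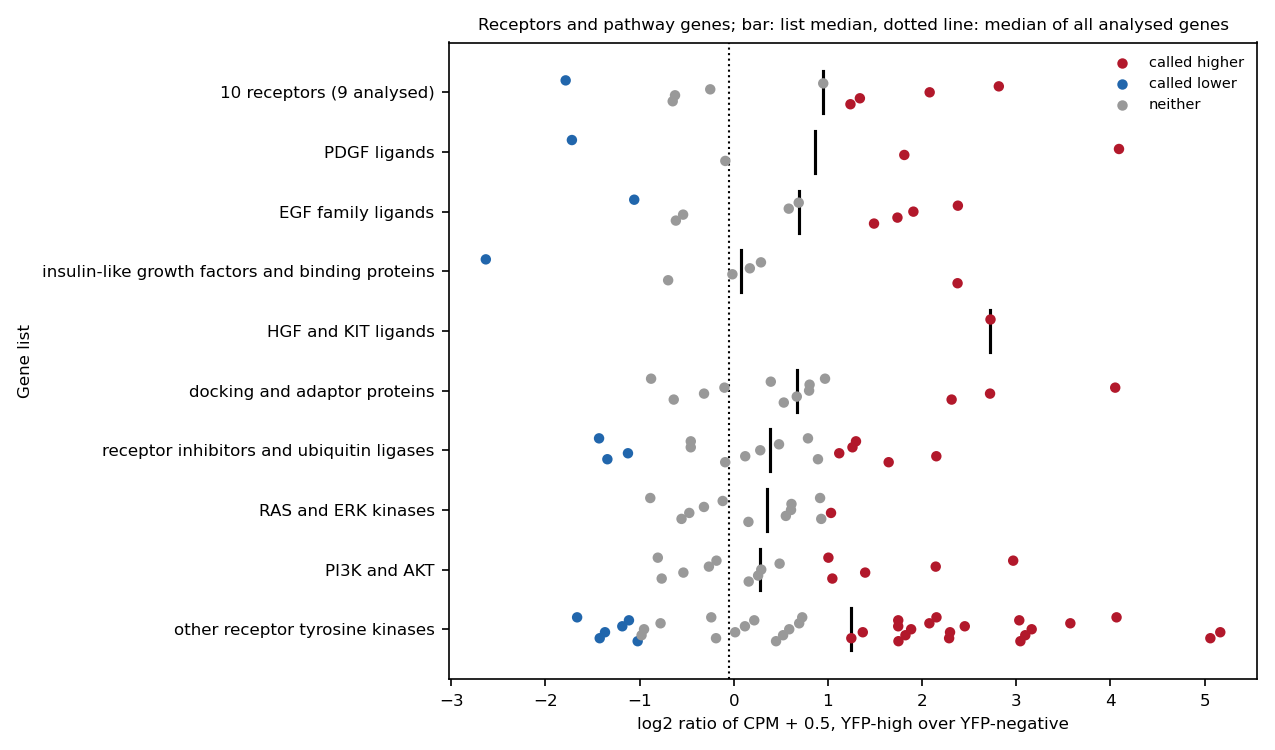
log2 ratio of CPM with 0.5 added, YFP-high over YFP-negative (x axis), for the receptors and each gene list (y axis). Points are genes, red called higher, blue called lower and grey neither, short bars are list medians, and the dotted line is the median of all analysed genes at -0.05. The bar of the receptors lies at 0.95 and that of the other receptor tyrosine kinases at 1.25.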

How the data were processed

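The authors deposited read counts per gene, as whole numbers without normalization, and TPM values, scaled by length, for 24519 gene names. Per the submitters' processing notes, the tools were HISAT2 2.0.3, HTSeq 0.6.0, Trimmomatic 0.36, CASAVA 1.8.2 and bcl2fastq, and the build hg19. Annotation, strand setting and the origin of TPM: not given in the sources used here. Library sizes excluded 6 rows without a gene name, which left 75.7% to 77.7% of reads.

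Counts were scaled with TMM in edgeR 4.0.16 (R 4.3.3), with YFP-negative as reference, and a minimum of 1 CPM in any library left 15099 genes. For log2 ratios 0.5 CPM was added to each level as a pseudocount, which understates changes of low genes. Folds were computed without it, with exact Clopper-Pearson 95% intervals that cover counting error only, as does the floor of 3 reads. PCR copies are not independent molecules. Nothing tells the spread between samples. Scripts ran under Python 3.11.15 with scipy 1.17.1, pandas 2.3.3, numpy 2.4.6 and matplotlib 3.10.9. The call rule was tested on simulated counts that held counting error only, as its interval assumes. That test does not bear on the spread between samples.

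The members, lists and rules were chosen with earlier results of these data known. Named genes are the 10 receptors, up to 4 called genes per list with the largest log2 ratio in YFP-high and at least 5 CPM, the 3 nearest profiles of each receptor called in YFP-high against YFP-negative, E2F1 and the markers. Others, such as IRS1, PDGFD or NRG2, were named after their values were seen. Promoters come from RefSeq (GRCh38.p14) and exon overlaps from GENCODE v29. As alternatives, a 1.5-fold rule, TPM, the parental baseline, a pseudocount of 2 CPM, no filter, total counts and DESeq2 1.42.0 size factors were run.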

Additional observations from a re-analysis of the deposited data

How the results depend on the processing

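Receptor log2 ratios were recomputed with DESeq2 size factors, total counts, a pseudocount of 2 CPM and TPM, giving 216 values. Of these 1 changed sign, PDGFRA between YFP-medium and YFP-low (0.12, and -0.0018 with total counts), and no called ratio did. A larger pseudocount cannot change a sign. Against the parental baseline, not counted here, EGFR in YFP-high was at 0.22, beside -0.25 against YFP-negative. Past the counting interval lay 77 values, but that interval is of the fold without a pseudocount. A ratio can lie outside it before any change of setting, as for ERBB4 in YFP-negative against parental (1.61, fold interval 5.44 to 19.6). With a 1.5-fold rule, 3 receptors were higher and none lower in YFP-low against YFP-negative (7.15% and 1.44% of all genes), 4 higher and 2 lower in YFP-medium (18.9% and 11.96%) and 5 higher and 3 lower in YFP-high (29.03% and 25.5%). That rule also gave 1 higher in YFP-medium against YFP-low (9.70%), 2 higher and 2 lower in YFP-high against YFP-medium (17.6% and 10.8%), and 2 higher and 4 lower in YFP-negative against parental (6.93% and 8.76%). Of the 114 list genes, it called 56 higher and 22 lower in YFP-high. With the parental baseline, 3 receptors were higher and 4 lower in YFP-low (5.96% and 4.40% of all genes). That baseline gave 3 and 4 receptors in YFP-medium (12.5% and 8.17%) and 5 and 3 in YFP-high (21.3% and 14.6%). Total counts gave 1 higher and 2 lower in YFP-medium (7.18% and 5.19% of all genes), and TPM gave 1 higher there (8.14% of 14985 genes with TPM). For YFP-negative against parental, TPM (2.13%) and a pseudocount of 2 CPM (1.09%) each gave 1 higher. Why the counts differ was not tested, beyond the wider rule itself. No paired analysis was possible because each group has 1 library. Depth limits ERBB3, ERBB4 and KIT most.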
